A study of Mus musculus with 8 samples.

Results

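Desmosomal cadherins are the adhesion proteins of desmosomes, the junctions that tie neighbouring keratinocytes together. The 8 genes described here were taken by gene symbol from the 55418 genes of the series: the desmogleins Dsg1a, Dsg1b, Dsg2, Dsg3 and Dsg4, and the desmocollins Dsc1, Dsc2 and Dsc3. The study sequenced RNA of mouse skin from 2 genotypes at postnatal days 0, 16, 19 and 28, with 8 libraries in all. The control mice are labelled wildtype, and the other mice, labelled hairloss, carry a spontaneous mutation. The labels give neither the mutated gene, the strain nor the body site, nor do they give the number of mice behind a library. With 1 library per genotype and day, a difference at a single day has no error of its own.

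Desmogleins and desmocollins reach across the gap between cells and bind each other, while their inner ends hold plakoglobin and plakophilins, which desmoplakin links to the keratin filaments. The isoforms are layered in skin. Dsg3 and Dsc3 are known from the lower epidermis, Dsg1 and Dsc1 from the upper layers, Dsg2 and Dsc2 also from simple epithelia and heart, and Dsg4 from the hair shaft. Mutations of Dsg4 cause the lanceolate hair phenotype in mice, and loss of Dsg3 causes balding. Hair grows in cycles of growth (anagen), regression (catagen) and rest (telogen), so the hair content of mouse skin changes with age.

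The genes lie side by side on chromosome 18 (build mm10, 19960930 to 20604521), within 644 kb that also hold Dsg1c. The order is Dsc3, Dsc2 and Dsc1 on the minus strand, then Dsg1c, Dsg1a, Dsg1b, Dsg4, Dsg3 and Dsg2 on the plus strand. Dsg4 (20436175 to 20471821, with 16 exons) sits 26.0 kb after Dsg1b and 38.5 kb before Dsg3. The Dsg1 genes are recent copies of each other. Dsg1a and Dsg1b had 96.4% identical bases over their longest reading frames, against 57.6% for Dsg1a and Dsg4. Of all 50-base windows in the Dsg1b transcript, 48.4% also occurred in another Dsg1 copy, and of those in Dsg1a, 35%. For Dsg4 and the 3 desmocollins no such window occurred in any other gene. Reads of Dsg1a and Dsg1b may therefore have been split between the copies by the authors' counting, and single values of these genes are uncertain.

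Levels are given as FPKM, fragments scaled to transcript length and to library size, which allows a comparison of genes within a library. Estimated depths were 30900000 to 44700000 fragments, so that a gene of 1 kb with 3 fragments would read 0.0672 to 0.0971 FPKM, a limit for counting error alone. All 8 genes reached 1 FPKM in some library. Keratinocyte markers were abundant in every library, with Krt5 at 573 to 2383 FPKM and Krt14 at 399 to 4829 FPKM. The genotypes did not match in sex markers at days 0, 19 and 28. The Y-linked gene Ddx3y was listed at 0 in the hairloss libraries of days 0 and 28 and stood at 15.8 to 20.4 FPKM in the other libraries, and Xist stood above 10 FPKM in the libraries of day 0, in wildtype at day 19 and in hairloss at day 28. The wildtype libraries of days 0 and 19 thus carried both markers, and the labels do not say whether they pool mice of both sexes. The part of sex in the differences below was not tested. In bulk skin, fewer cells of a type and less RNA per cell cannot be told apart.

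Dsc3, Dsg1a and Dsc1 were the 3 highest cadherins in each of the 8 libraries. Dsc3 was highest in 7 of them and lay level with Dsc1 in newborn hairloss skin (78.1 and 78.2 FPKM). Its level ran from 78.1 to 281 FPKM, that of Dsg1a from 67.4 to 152 FPKM and that of Dsc1 from 70.9 to 172 FPKM. Between the lowest and the highest library Dsg1a varied by 2.25 times, Dsc1 by 2.43 times, Dsg1b by 3 times, Dsg2 by 3.01 times and Dsc3 by 3.60 times. Dsg4 varied most, by 106 times, and Dsc2 next, by 21.6 times. Dsg4 was the fourth most abundant cadherin in wildtype skin at days 16 and 28 and the lowest of all 8 in 4 of the other 6 libraries, with Dsc2 lowest in newborn wildtype skin and Dsg2 in hairloss skin at day 16.

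**Figure D1:**
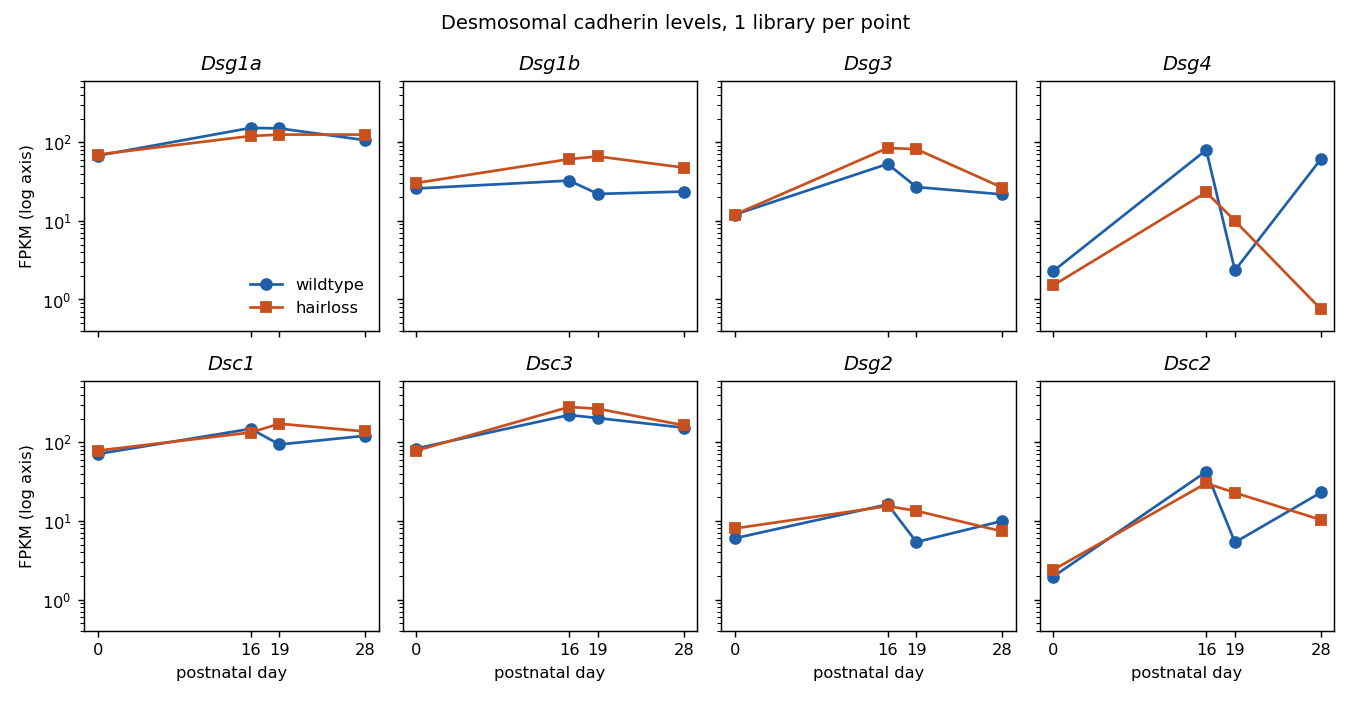
Level of each desmosomal cadherin in FPKM (log axis) against postnatal day, with 1 library per point, wildtype as blue circles and hairloss as orange squares. Dsg4 runs from 0.750 to 79.6 FPKM and Dsc2 from 1.95 to 42.3 FPKM, while Dsg1a, Dsc1 and Dsc3 stay within 67.4 to 281 FPKM.

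Dsg4, the desmoglein of the hair shaft, went up and down with age in wildtype skin but not in the same order in hairloss skin. In wildtype skin it stood at 2.29, 79.6, 2.35 and 61.3 FPKM at days 0, 16, 19 and 28. In hairloss skin it stood at 1.51, 23.1, 10 and 0.750 FPKM. Wildtype skin thus had a low, a high, a low and a high value, and hairloss skin had its highest value at day 16 and lower values at each later day. The hairloss library was 3.45 times lower than wildtype at day 16, 4.26 times higher at day 19 and 81.6 times lower at day 28. By the estimated depth the value of 0.750 FPKM still rests on about 110 fragments, well above 3. Neither the genotype difference over the 4 ages (-1.39 ± 1.25, SE, on the log2(FPKM + 1) scale; limma adjusted p = 0.619) nor any age step (limma adjusted p = 0.209 to 0.891) passed the test. The genotype difference was -0.14 without day 28 and -2.43 without day 19.

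Hair shaft keratins were high and low in the same libraries as Dsg4 from day 16 on. Over 8 hair shaft keratins, the median difference between hairloss and wildtype was -2.16 at day 16, 3.64 at day 19 and -8.75 at day 28, against -1.74, 1.72 and -5.15 for Dsg4, all as log2(FPKM + 1). Their summed level in wildtype skin was 4169, 17.4 and 3810 FPKM at these days, and in hairloss skin 886, 333 and 13.4 FPKM. Krt35 held 12.7 FPKM of the sum of 13.4 FPKM, and the median of the 8 keratins in that library was 0.0342 FPKM. This median lay below the 0.0703 FPKM that a 1 kb gene with 3 fragments would read there. Dsg4 and the mean of these keratins correlated with r = 0.99 over the 8 libraries, a description of libraries that share ages and genotypes. Other follicle genes did so too, with r = 0.95 for 9 inner root sheath genes and r = 0.91 for 6 hair matrix regulators. The inner root sheath genes had median differences of -1.63, 3.73 and -4.95 at days 16, 19 and 28. At day 16, 6 of them were at least 2-fold lower and 1, Tchh, was higher. Tchh was listed at 0 in the wildtype library of that day, against 1419 FPKM in its hairloss counterpart. The wildtype library of day 28 had 2076 FPKM of Tchh. Whether the 0 is a failed estimate was not tested, and it is part of the list mean behind r = 0.95. Of 11235 coding genes ranked by their correlation with Dsg4, the nearest 5 were Krt87, Ctse, Krtap16-1, Krt33a and Krtap26-1 (r = 0.995 to 0.996). Krt33a and Krt87 are hair keratins, and both Krtap genes encode keratin-associated proteins of the hair shaft. Ctse encodes the protease cathepsin E and went from 64.5 FPKM in the wildtype to 0.0578 FPKM in the hairloss library of day 28.

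Hoxc13, Lef1 and Foxn1, transcription factors of the hair matrix known as regulators of the human gene, lay in the same direction as Dsg4 at days 16, 19 and 28. Of the 6 hair matrix regulators listed, all 6 were at least 2-fold lower in hairloss skin at day 16 and all 6 again at day 28. Over all genes the share was 7.39% of 16186 at day 16 and 6.42% of 16021 at day 28. At day 19, Hoxc13, Dlx3 and Foxn1 were at least 2-fold higher, where 6.53% of 16656 genes were. Gata3 differed the other way, with a log2 difference of -0.51. For days 16, 19 and 28, Hoxc13 had wildtype values of 40, 3.04 and 32.7 FPKM against hairloss values of 16, 9.28 and 4.13 FPKM. The wildtype values of Foxn1 were 20.4, 1.36 and 17.4 FPKM against 5.16, 3.83 and 1.19 FPKM. Lef1 differed little at day 19, with a log2 difference of 0.15. The hairloss library of day 28 held 12.6% of the wildtype Hoxc13 level and 1.22% of the wildtype Dsg4 level. Of the 6 regulators and the 8 hair shaft keratins, 0 passed the limma genotype test over ages, where 0.0374% of 18724 genes did.

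The epidermal members were Dsg1a, Dsg1b, Dsg3, Dsc1 and Dsc3. Their geometric mean was 41.5, 96.9, 70.1 and 63.1 FPKM in wildtype skin at days 0, 16, 19 and 28, and 43.4, 118, 125 and 81.1 FPKM in hairloss skin. Dsg4 lay within 0.29 of their mean on the log2(FPKM + 1) scale in wildtype skin at days 16 and 28 (-0.29 and -0.05). It lay -2.31 to -5.56 below it in the other 6 libraries, with hairloss at day 28 at the lower end. In wildtype skin at these days Dsg4 stood below Dsc3, Dsg1a and Dsc1 and above Dsg3 and Dsg1b.

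Dsg3, the desmoglein of basal keratinocytes, rose between day 0 and day 16 in both genotypes. It stood at 12, 52.9, 26.9 and 21.7 FPKM in wildtype skin at days 0, 16, 19 and 28, and at 12, 84.5, 81.6 and 26.4 FPKM in hairloss skin. The rise from day 0 to day 16 was 2.39 ± 0.38 (SE, log2(FPKM + 1); limma adjusted p = 0.0378). The value stayed high in hairloss skin to day 19, where it was 3.04 times the wildtype value, and the genotypes were equal at day 0. The genotype difference over ages was 0.63 ± 0.27 and missed the threshold (limma adjusted p = 0.387), and it was 0.31 without day 19.

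Dsc3, the desmocollin of the same layers, also rose from day 0 to day 16. It stood at 83.2, 222, 203 and 153 FPKM in wildtype skin and at 78.1, 281, 267 and 164 FPKM in hairloss skin. The rise was 1.62 ± 0.20 (SE; limma adjusted p = 0.0272), and the genotypes differed by at most 1.32 times at any day. Of the 8 members, Dsc3 and Dsg3 were the 2 that passed at this step, both higher at day 16, where 3.58% of all 18724 genes tested were called higher. The median step over the members was 1.35, against -0.05 over all genes. Without a filter on low values, where 168 of 34373 genes were called higher, the call of Dsg3 was lost (limma adjusted p = 0.0591). In 3 other settings Dsc2 and Dsg1a were added, making 4.

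Among the other desmosome genes, those of desmoplakin and corneodesmosin passed the threshold at the same step, both higher at day 16. Dsp, the desmoplakin gene, went from 200 to 545 FPKM in wildtype and from 225 to 578 FPKM in hairloss skin, a rise of 1.40 ± 0.26 (SE; limma adjusted p = 0.0433). Cdsn, whose product corneodesmosin is a secreted protein of the desmosomes of the cornified layer, rose by 1.98 ± 0.23 (limma adjusted p = 0.0244). These were the 2 of 9 plaque genes and partners tested that passed, with 0 lower. Over all 18724 genes tested, 3.58% were called higher. The rest of the list also rose but missed the threshold, and the median step over the 9 was 1.21. Pkp3 rose by 1.84 (limma adjusted p = 0.0658) and Evpl by 1.58 (limma adjusted p = 0.0821). Of the 4 tested genes for proteases and the inhibitor that act on desmogleins in the cornified layer, Klk7 rose by 2.52 ± 0.28 (limma adjusted p = 0.0239) and its inhibitor gene Spink5 by 1.61 ± 0.29 (limma adjusted p = 0.0406). Of 5 adherens junction genes, 0 passed, though all 5 rose, with a median step of 0.59. The largest of these was in Cdh1, at 1.12 ± 0.26 (limma adjusted p = 0.0582). Of 7 basal keratinocyte genes, 1 passed, Krt5, at 1.48 ± 0.29 (limma adjusted p = 0.0462).

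The steps from day 16 to 19 and from day 19 to 28 gave no call for any member with limma, where 0.0160% and 0% of all genes were called, the latter with 1910 genes at an unadjusted p under 0.05. At an unadjusted p under 0.05 there were 0 of 8 members and 975 of 18724 genes at the first of these steps, and 1 member at the second, Dsc3, at -0.55 ± 0.20 (limma adjusted p = 0.472). The genotype difference over ages also gave 0 of 8 calls, against 0.0374% of all genes, with adjusted p-values of 0.322 to 0.917. At an unadjusted p under 0.05 there was 1 of 8 members, Dsg1b, beside 2511 of 18724 genes.

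Dsg1b stood higher in hairloss than in wildtype skin at each of the 4 ages, although its close copy Dsg1a did not. Dsg1b stood at 25.8, 32.5, 22.0 and 23.6 FPKM in wildtype skin at days 0, 16, 19 and 28, and at 30.3, 60.9, 66.0 and 47.5 FPKM in hairloss skin. Every hairloss value from day 16 on lay above all 4 wildtype values. The difference over ages was 0.91 ± 0.22 (SE; limma adjusted p = 0.322). Dsg1a stood at 67.4, 152, 150 and 106 FPKM in wildtype skin and at 69.6, 120, 125 and 125 FPKM in hairloss skin, a difference of -0.08 ± 0.15 (limma adjusted p = 0.816), with ranges that overlapped.

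The ratio of Dsg1a to Dsg1b was accordingly wider in wildtype skin. It was 2.62, 4.68, 6.85 and 4.47 in wildtype skin at days 0, 16, 19 and 28, and 2.30, 1.98, 1.89 and 2.63 in hairloss skin. Dsg1c was low throughout, at 0.186 to 0.557 FPKM. Summed over the 3 copies, Dsg1 stood at 93.5, 185, 173 and 130 FPKM in wildtype skin and at 100, 182, 191 and 173 FPKM in hairloss skin, so the genotypes lay closer in the sum than in Dsg1b. The sources used here do not say how fragments matching more than 1 copy were assigned, and its part in the ratio was not tested.

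Wound-type keratinocyte genes followed Dsg1b over the libraries. These 7 genes, among them Krt6a, Krt6b, Krt16 and S100a9, summed to 3139, 1755, 647 and 1012 FPKM in wildtype skin and to 7570, 18091, 22588 and 5612 FPKM in hairloss skin. None was listed at 0 in any library. All 7 were at least 2-fold higher in hairloss skin at days 16 and 19, where 864 of 16186 and 1088 of 16656 genes were. At day 0 the number was 4 of 7, against 249 of 16685 genes. At day 28 it was 5 of 7, against 897 of 16021 genes. Of the 7, 0 passed the limma genotype test over ages, where 0.0374% of 18724 genes did. S100a8 and S100a9 are also abundant in neutrophils. The part of these cells in the Dsg1b values was not tested. Dsg1b correlated with the mean log2 level of the 7 wound-type genes with r = 0.97 over the 8 libraries. The other members had r = -0.03 (Dsg4) to 0.65 (Dsg3). Dsg1b also had r = 0.78 with the mean of 7 basal and r = 0.69 with that of 6 suprabasal keratinocyte genes. The 5 coding genes nearest to Dsg1b were Egln3, Rassf10, S100a9, Ywhaz and Actr2 (r = 0.976 to 0.995), whereas the nearest to Dsg1a was Spink5 (r = 0.988). Egln3, which encodes an oxygen-sensing prolyl hydroxylase, had 66.3 FPKM in the hairloss library of day 19 and 5.92 in its wildtype counterpart.

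**Figure D2:**
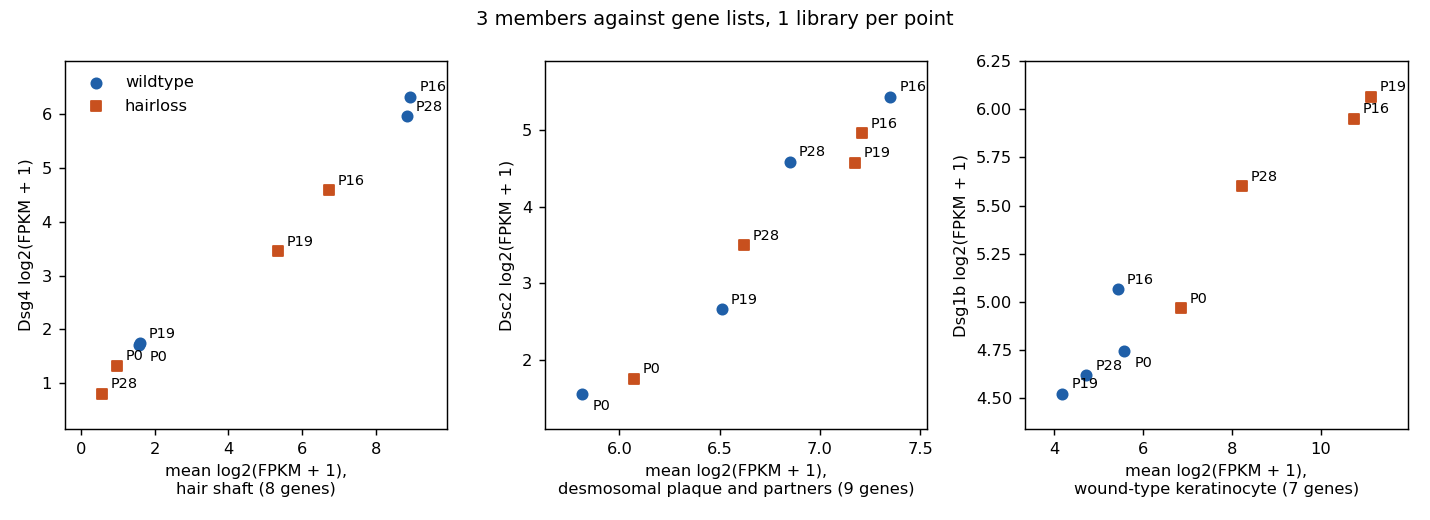
Level of 3 members, as log2(FPKM + 1), against the mean level of a gene list on the same scale, with 1 library per point, wildtype as blue circles and hairloss as orange squares. Dsg4 lies along the 8 hair shaft keratins (r = 0.99), Dsc2 along the 9 desmosomal plaque genes and partners (r = 0.98), and Dsg1b along the 7 wound-type genes (r = 0.97).

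Dsc1, the desmocollin of the upper epidermis, differed between genotypes mainly at day 19. It stood at 70.9, 148, 93.7 and 121 FPKM in wildtype skin and at 78.2, 133, 172 and 137 FPKM in hairloss skin. The day 19 values lay 1.84 times apart, and at the other days the ratio was at most 1.14. The 5 genes nearest to Dsc1 had lower correlations than those of any other member (r = 0.961 to 0.970), led by Serpinb5, which encodes the serpin maspin.

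Dsc2 had the time course closest to that of Dsg4 among the desmocollins. It stood at 1.95, 42.3, 5.33 and 23.0 FPKM in wildtype skin at days 0, 16, 19 and 28, and at 2.38, 30.1, 22.8 and 10.3 FPKM in hairloss skin. As for Dsg4, wildtype skin had low values at days 0 and 19 and high values at days 16 and 28, while hairloss skin was lower than wildtype at days 16 and 28 and higher at day 19. The ratios were smaller than for Dsg4 at days 16 and 28, at 1.40 and 2.25 times, and close to it at day 19, at 4.28 times. Unlike Dsg4, Dsc2 kept 10.3 FPKM in hairloss skin at day 28, which was 4.32 times its newborn level. The step from day 0 to day 16 was 3.54 ± 0.73 (SE; limma adjusted p = 0.0528).

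Dsg2, the broadly expressed desmoglein, was among the 3 lowest members in each library. It stood at 6, 16.2, 5.38 and 10 FPKM in wildtype skin and at 8.01, 15.4, 13.4 and 7.34 FPKM in hairloss skin. The genotypes lay within 1.36 times of each other except at day 19, where hairloss skin was 2.49 times higher. Over the 8 libraries, which share ages and genotypes, its correlation was 0.86 with Dsc2, 0.79 with Dsg3, 0.78 with Dsg4, 0.74 with Dsc1, 0.63 with Dsc3, 0.61 with Dsg1b and 0.38 with Dsg1a. Among markers of other tissues that use this pair, the 3 heart muscle genes summed to 0.326 to 2.18 FPKM. Of the 5 simple epithelial markers, the keratins Krt7, Krt8, Krt18 and Krt19 stood at 0.111 to 10.7 FPKM, highest in Krt18 of wildtype skin at day 16, and Epcam at 23.6 to 189 FPKM. Their part in the Dsg2 and Dsc2 values was not tested. Pkp3, which encodes a plakophilin of the desmosomal plaque, was among the 5 genes nearest to Dsc2 (r = 0.989).

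**Figure D3:**
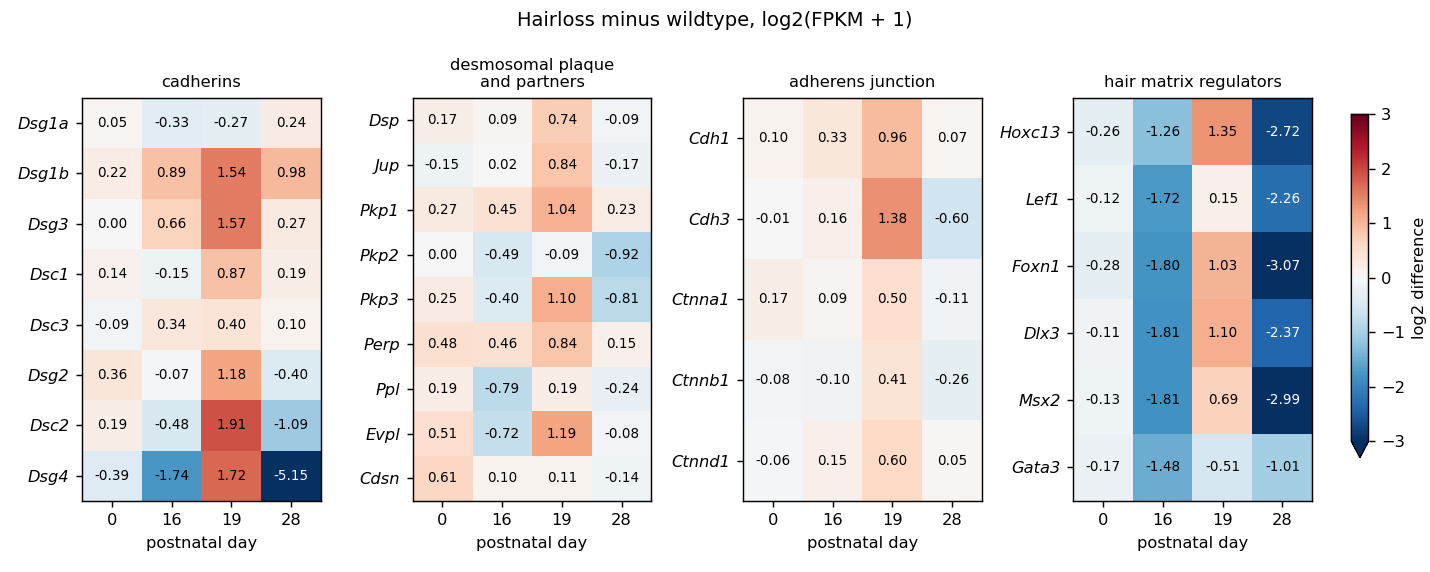
Difference between the hairloss and the wildtype library at each postnatal day, as log2(FPKM + 1), for the 8 cadherins, 9 desmosomal plaque genes and partners, 5 adherens junction genes and 6 hair matrix regulators, with 1 library per genotype and day. Colours end at -3 and 3. Day 19 is positive for 7 of 8 cadherins, and day 28 is lowest for Dsg4 (-5.15).

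Differences of 1 or more on the log2(FPKM + 1) scale, that is 2-fold, were counted at each day with no test. At day 0 none of the 8 cadherins reached this size, 0 of 8, where 3.07% of 16685 genes did. At day 16 only Dsg4 did, on the lower side, where 7.39% of 16186 genes were lower. At day 19 Dsg1b, Dsg2, Dsg3, Dsg4 and Dsc2 were higher in hairloss skin, 5 of 8, against 6.53% of 16656 genes. At day 28 Dsg4 and Dsc2 were lower, 2 of 8, against 6.42% of 16021 genes. Dsg1b was just short of this size at day 28, with a log2 difference of 0.98. The median difference over the 8 members was 0.09, -0.11, 1.36 and 0.14 at days 0, 16, 19 and 28, and over all genes -0.01, -0.08, 0 and 0.

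Other epithelial junction genes also stood higher in hairloss skin at day 19. The 5 adherens junction genes had a median difference of 0.60, with E-cadherin (Cdh1) going from 60.2 FPKM in wildtype to 118 in hairloss skin and P-cadherin (Cdh3), a cadherin of basal and hair matrix cells, from 10.5 to 29 FPKM. Of 9 plaque genes and partners, Evpl, Pkp3 and Pkp1 were at least 2-fold higher, where 6.53% of 16656 genes were, and 0 were lower. The 7 basal keratinocyte genes had a median difference of 0.44, with 2 at least 2-fold higher and 1 lower. For the 6 suprabasal genes the median was 0.05, with 1 higher and 0 lower. In the hairloss library of day 19 all 5 fat cell genes, 3 of 4 fibroblast genes and 4 of 6 skeletal muscle genes were at least 2-fold lower. Over all genes, 960 of 16656 were lower by this measure. The part of these tissues in the day 19 values was not tested. After the median of the adherens junction genes was subtracted, Dsc2 (1.31) and Dsg4 (1.12) stayed past 2-fold at day 19, while Dsg3 (0.97), Dsg1b (0.94) and Dsg2 (0.58) did not. At day 28 the plaque list had a median of -0.14 and 0 of 9 genes past 2-fold on the log2(FPKM + 1) scale. The largest differences on it were in Pkp2 (-0.92, from 3.48 FPKM in wildtype to 1.37 FPKM in hairloss skin) and Pkp3 (-0.81, from 152 to 86.5 FPKM).

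The make-up of the desmogleins differed more than their sum. The 5 desmogleins together stood at 113, 333, 207 and 222 FPKM in wildtype skin and at 121, 304, 296 and 207 FPKM in hairloss skin. Dsg4 made up 2.02%, 23.9%, 1.14% and 27.6% of this sum in wildtype skin and 1.24%, 7.58%, 3.39% and 0.363% in hairloss skin. The share of Dsg3 at days 16 and 19 was 15.9% and 13% in wildtype skin, against 27.8% and 27.6% in hairloss skin. Among desmocollins, Dsc3 held 49.2% to 67.2% in every library, and Dsc2 held its largest share, 10.3%, in wildtype skin at day 16. The desmogleins summed to 0.640 to 0.808 times the desmocollins in all 8 libraries, so the ratio of the families varied far less than that of single members.

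**Figure D4:**
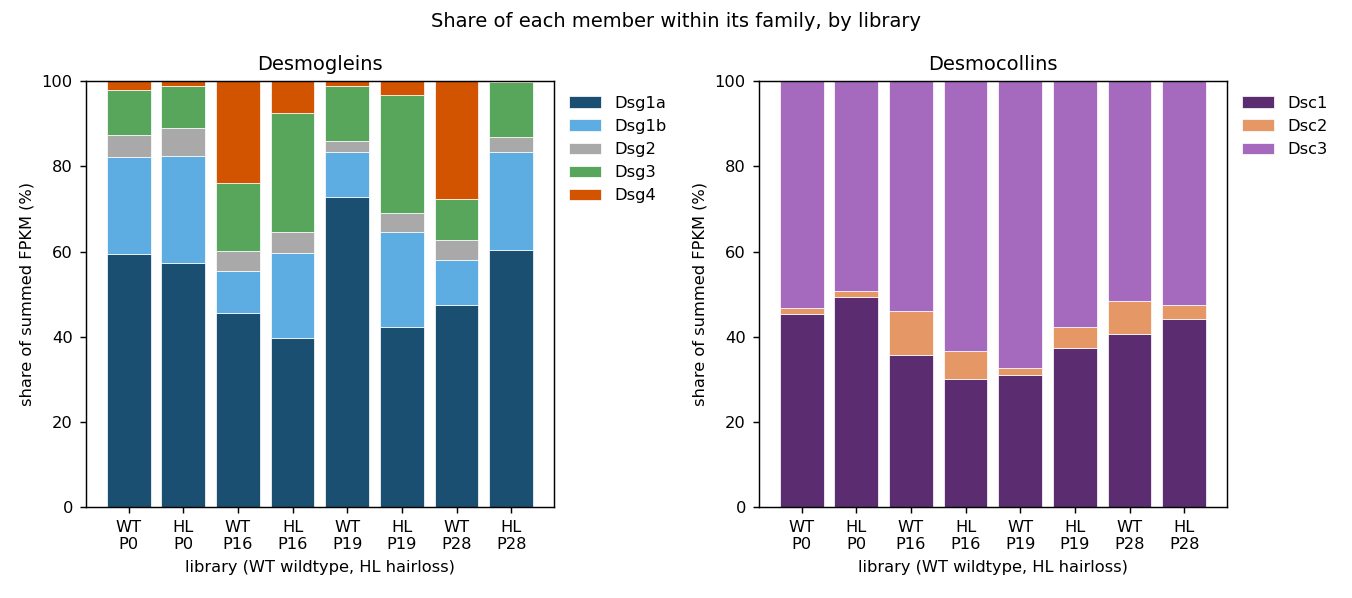
Share of each member in the summed FPKM of the desmogleins (left) and desmocollins (right) for the 8 libraries, with WT for wildtype and HL for hairloss. Dsg4 holds 23.9% and 27.6% of the desmogleins in wildtype skin at days 16 and 28 and 0.363% in hairloss skin at day 28.

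Neighbours in the gene cluster differed in direction. At day 28 Dsg4 had a difference of -5.15 on the log2(FPKM + 1) scale, while Dsg1b on one side had a difference of 0.98 and Dsg3 on the other one of 0.27. Dsc2 differed by -1.09 between Dsc3 at 0.10 and Dsc1 at 0.19. At day 19 the differences of Dsg1b, Dsg4, Dsg3 and Dsg2, which follow each other, were 1.54, 1.72, 1.57 and 1.18, and that of Dsg1a before them was -0.27.

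**Figure D5:**
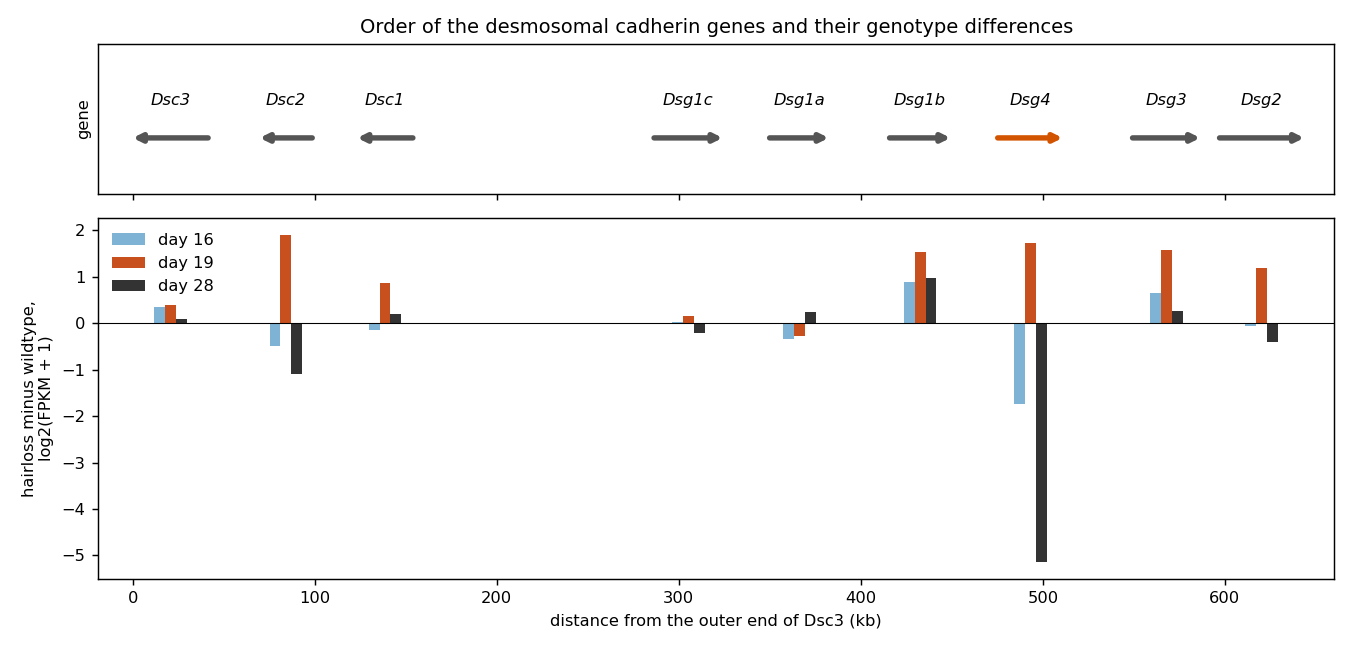
Order and direction of the 8 cadherin genes and Dsg1c, drawn to scale by distance in kb from the outer end of Dsc3 (top), and the difference between hairloss and wildtype skin at days 16, 19 and 28 as log2(FPKM + 1) at each gene (bottom). Dsg4 has the largest difference, -5.15 at day 28, between Dsg1b (0.98) and Dsg3 (0.27).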

How the data were processed

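Total RNA of mouse skin was sequenced after RNeasy isolation and TruSeq library preparation, per the labels' protocols. Per the submitters' processing notes, the tools were cutadapt and Cuffdiff and the build was mm10, no versions stated. The sources used here name no aligner, annotation release or strand setting. The authors deposited values that were taken as FPKM, since Cuffdiff gives that unit; the headers state none. FPKM depends on transcript length and library scaling, and any scaling between libraries by Cuffdiff is unstated.

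Gene types and coordinates came from GENCODE M21 on mm10. Depth was estimated as the fragment number at which most genes with 1 transcript of over 1000 bases carry the value of 1 fragment; it is approximate. All fits used log2(FPKM + 1), a scale on which changes of low genes look smaller than they are. limma (version 3.58.1, R 4.3.3, eBayes with trend and robust) tested the genotype difference with age as a block and each age step with genotype as a block, over the 18724 genes that reached 1 FPKM in a library, two-sided, with Benjamini-Hochberg adjustment at 0.05. Either fit leaves only 3 residual degrees of freedom, for the genotype and for the age steps alike, and counts real changes of the difference with age as spread. The labels do not say that libraries are separate animals, so p-values measure the spread between these libraries. Alternatives covered pseudocounts of 0.1 and 5, filters, 2 scalings, limma settings, suspected failed estimates, the block and each age.

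Reading frames and shared windows of 50 bases were computed from GENCODE transcripts (mafft 7.526; Python 3.11.15). The members were named in full, with up to 4 genes of largest difference, and those past a threshold, from each list, and the 5 coding genes of at least 5 FPKM nearest to each member by Pearson correlation. Members and lists were chosen with earlier results of these data known. Krt85, of the hair shaft list, was not analysed here.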

Additional observations from a re-analysis of the deposited data

Results flagged for a closer look

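Dsg4 differed between genotypes in opposite directions at different ages. The hairloss library stood 1.72 higher than wildtype at day 19 on the log2(FPKM + 1) scale, and the differences at days 16 and 28 were -1.74 and -5.15. Dsc2 did the same, with 1.91 at day 19 and -1.09 at day 28. The change of the difference between days was not tested, because there is 1 library per genotype and day.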

How the results depend on the processing

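Of 8 members, 2 passed the step from day 0 to 16, where 670 of 18724 genes were called higher. The number was 4 with a pseudocount of 0.1 (838 of 18724 genes) and with at least 5 FPKM in some library (665 of 12393 genes). It was also 4 without suspected failed estimates (844 of 18419 genes), and 1 with no filter on low values (168 of 34373 genes). At day 19, 5 members were at least 2-fold apart, and 2 after subtraction of the adherens junction median, an alternative chosen after seeing the data. At day 28 the number was 2, or 3 with a pseudocount of 0.1, with Dsg1b added, and 1 with a pseudocount of 5. The genotype difference of Dsg4 against the epidermal members was 0.89 at day 19, or 0.27 with a pseudocount of 5, and -5.51 at day 28, or -6.54 and -3.85 with pseudocounts of 0.1 and 5. The fits pair libraries by age or genotype. With no replicate block, 0 members passed the genotype test and 3 the day 0 to 16 step, where 494 of 18724 genes were called higher. Leaving out an age in turn left 0 calls of the genotype difference. Over ages, Dsg4 ran from -2.43 (without day 19) to -0.14 (without day 28), against -1.39, and Dsg3 from 0.31 (without day 19) to 0.84, against 0.63. Without day 19, Dsc1 was 0.06, against 0.26, and Dsc3 was 0.11, against 0.18. Small differences, none past the threshold, changed sign, and the cause was not tested: over ages, leaving out an age gave -0.46 (without day 19) to 0.54 for Dsc2, -0.03 (without day 19) to 0.49 for Dsg2 and -0.18 to 0.0057 (without day 16) for Dsg1a; from day 19 to 28, Dsc1 (-0.06 and -0.0069 under the 2 scalings) and Dsg2 (0.01 with a pseudocount of 0.1); from day 16 to 19, Dsc3 (0.04 when scaled without keratins). Depth limits Dsg1c most, and the lack of replicates limits every member.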
